A study of Mus musculus with 4 samples.

Results

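The 37 genes described here make, regulate or export cholesterol and fatty acids, and they were chosen by gene symbol from knowledge of the pathway. The rule uses no measured value, but the list was drawn up with earlier results of these data known. All 37 were in the deposited table of 49585 genes, and 35 of them were among the 12669 genes with an FPKM (fragments per kilobase of transcript scaled to the library total) of at least 1 in at least 1 library. The sterol exporters Abca1 and Abcg1 did not pass this filter. All kept members but Fdps had an FPKM of at least 1 in every library, and Fdps passed through the 2 libraries without drug.

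The cells were 4T1–HM and 4T1–LM, each a single–cell clone of the murine triple–negative mammary cancer line 4T1, with a high and a low capacity to metastasize. Each clone was grown in culture for 48 h with 50 μmol/L of DFX (deferasirox, a clinical iron chelator) dissolved in DMSO or with DMSO alone, which gave the libraries HM_Ctrl, HM_DFX, LM_Ctrl and LM_DFX. Each condition holds 1 library, so no difference has a replicate check, no test was run and no p–value is given, and a difference between HM and LM is a difference between 1 clone and another. In bulk RNA of this kind, fewer cells of a type and less RNA per cell cannot be told apart.

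Cholesterol is built from acetyl–CoA through mevalonate, farnesyl diphosphate, squalene and a series of sterols, and fatty acids are built from the same acetyl–CoA, then lengthened and desaturated. Both branches are transcribed under the sterol regulatory element–binding proteins (SREBPs), membrane–bound transcription factors that SCAP carries from the endoplasmic reticulum to the Golgi for cleavage when sterols are low, and that INSIG proteins hold back when sterols are high. Active SREBP binds promoters together with NF–Y, which reads the CCAAT box, and with GC box–binding proteins. The LXR receptors act in the opposite direction on sterol balance and induce exporters when oxysterols accumulate. Several enzymes of the pathway carry iron, either in heme (Cyp51) or at a diiron center (Msmo1, Sc5d, Scd1, Scd2, Fads1 and Fads2).

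With DFX, the transcripts of most of these genes were less abundant in both clones. The summed FPKM of the 37 genes was 2068 with DMSO and 788 with DFX in HM, and 2142 and 1062 in LM. The 2 untreated clones were thus close to each other and both treated cultures lay far below them. A gene was called when the ratio of FPKM + 1 was at least 2-fold. In 4T1–HM, 23 of the 35 kept members were called lower and 0 higher, where 12.4% of all kept genes were called lower and 6.93% higher. In 4T1–LM, 17 were called lower and 1 higher, where 8.72% of all kept genes were called lower and 7.09% higher. The median log2 change of FPKM + 1 over the members was −1.56 in HM and −0.97 in LM, beside −0.10 and −0.04 over all kept genes.

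Because SREBP and NF–Y are known to act near the starts of these genes, the bases upstream of the annotated start are shown for 5 members. Hmgcs1, Idi1 and Mvk act in the mevalonate pathway and were called lower in both clones, Fasn is the fatty acid synthase and was called lower in both, and Insig2 is given as a member that was not called lower in either clone. The promoters come from RefSeq on GRCm38.p6, in which 38 windows from 250 bases before to 50 bases after a start matched 29 of the members. Fdps, Fdft1, Sqle, Stard4, Fads1, Scd1, Scd2 and Abcg1 were not matched. Of the 3 windows of Insig2, only the window shown holds CCAAT. The lines below give the 250 bases before the start, 5′ to 3′ on the strand of the gene, and the capitals mark CCAAT or its reverse complement ATTGG and, in Hmgcs1, the sterol element. The positions are chr13:119690101-119690350 on the plus strand for Hmgcs1, chr13:8885356-8885605 on the plus strand for Idi1, chr5:114444019-114444268 on the plus strand for Mvk, chr11:120824548-120824797 on the minus strand for Fasn and chr1:121332590-121332839 on the minus strand for Insig2, whose window is the farthest upstream of its 3 windows.
Hmgcs1: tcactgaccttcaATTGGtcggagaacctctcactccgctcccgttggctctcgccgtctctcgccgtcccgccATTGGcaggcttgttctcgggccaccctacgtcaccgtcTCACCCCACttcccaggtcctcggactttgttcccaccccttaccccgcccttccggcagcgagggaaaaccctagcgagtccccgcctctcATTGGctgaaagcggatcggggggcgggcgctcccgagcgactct
Idi1: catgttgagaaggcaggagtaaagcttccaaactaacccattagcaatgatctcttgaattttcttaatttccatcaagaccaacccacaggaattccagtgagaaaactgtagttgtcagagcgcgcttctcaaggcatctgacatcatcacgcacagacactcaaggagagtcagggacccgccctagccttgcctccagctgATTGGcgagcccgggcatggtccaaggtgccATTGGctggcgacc
Mvk: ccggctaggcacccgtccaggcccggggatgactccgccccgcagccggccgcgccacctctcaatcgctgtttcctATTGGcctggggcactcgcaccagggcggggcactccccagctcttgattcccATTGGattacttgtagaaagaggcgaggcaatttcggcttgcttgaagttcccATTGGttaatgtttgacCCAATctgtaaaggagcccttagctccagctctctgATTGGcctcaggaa
Fasn: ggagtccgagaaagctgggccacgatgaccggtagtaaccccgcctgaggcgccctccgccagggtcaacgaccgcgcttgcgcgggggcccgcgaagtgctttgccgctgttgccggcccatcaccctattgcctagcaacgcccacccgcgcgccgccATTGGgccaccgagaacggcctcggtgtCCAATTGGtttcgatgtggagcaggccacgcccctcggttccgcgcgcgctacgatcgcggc
Insig2: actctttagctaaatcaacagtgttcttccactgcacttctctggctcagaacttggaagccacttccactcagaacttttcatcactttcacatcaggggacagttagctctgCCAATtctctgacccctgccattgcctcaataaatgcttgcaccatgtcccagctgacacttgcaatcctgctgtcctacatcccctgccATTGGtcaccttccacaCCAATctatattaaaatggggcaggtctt

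A set of 4 motifs was looked for on both strands of the whole windows: the sterol regulatory element as TCACNCCAC, the NF–Y box CCAAT, the E–box CACGTG and the GC box GGGCGG. The sterol element matched in 1 member, Hmgcs1, as TCACCCCAC at −137 from the start, while 1.37% of the 8620 kept genes with a window held it. The NF–Y box was found in 22 of the 29 member genes (75.9%) and in 43.6% of the kept genes. Mvk held 5 of these boxes, Hmgcs1 and Nsdhl 4 each, and Fasn, Hsd17b7, Msmo1 and Insig2 3 each. For a gene with several windows this is the highest number in any of them, and the other windows of Insig2 held 0. In Fasn, the boxes at −62 and −59 overlap on opposite strands. The GC box was found in 24 of the 29 genes (82.8%) and in 71.3% of the kept genes, and the E–box in 6 (20.7%) and in 12.1%. Members with and without CCAAT were called lower. Of the 22 genes with the box, 14 were called lower in HM and 10 in LM, and of the 6 kept genes without it, 4 were called lower in each clone. The shares called lower over all kept genes were 12.4% in HM and 8.72% in LM. The median log2 change of FPKM + 1 was −1.48 with the box and −1.64 without it in HM, and −0.97 and −1.28 in LM. A match is a description of letters in a window and was not tested for binding.

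The mevalonate steps carried the largest changes as a group, with 6 of 7 genes called lower in each clone and median log2 changes of −2.10 in HM and −1.81 in LM. Acat2 makes acetoacetyl–CoA from acetyl–CoA and lies at chr17:12942890-12960747 on the minus strand of mm10. Its FPKM was 62.5 with DMSO and 7.12 with DFX in HM, and 95.6 and 19.9 in LM. Within each clone the level was lower with DFX, and HM_DFX was the lowest library. Where 4 values stand in a row from here on, they are FPKM in this order (HM without and with DFX, LM without and with DFX). The level was 8.78-fold lower with DFX in HM (95% counting interval 7.73 to 10.0) and 4.80-fold lower in LM (4.49 to 5.13). These intervals come from the recovered fragments, so the spread from culture to culture is not in them. On the FPKM + 1 scale, Acat2 in HM had the 23rd lowest change of the 12669 kept genes. Of the stretches of 31 bases in Acat2, 43.7% also occur in its paralog Acat3, so its level is uncertain where fragments could be split between the copies.

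Hmgcs1 joins acetoacetyl–CoA to a further acetyl–CoA to form HMG–CoA. Its FPKM was 105 with DMSO and 23.7 with DFX in HM, and 163 and 28.8 in LM. LM_Ctrl was the highest, and the treated libraries lay close together. The gene, at chr13:119690462-119708086 on the plus strand, was 4.42-fold lower in HM (4.15 to 4.72) and 5.68-fold lower in LM (5.41 to 5.97). Mevalonate kinase, Mvk, had an FPKM of 16.6 with DMSO and 3.10 with DFX in HM, and 21.03 and 6.35 in LM. It was 5.36-fold lower in HM (4.41 to 6.56) and 3.31-fold lower in LM (2.93 to 3.75). The decarboxylase Mvd, which yields isopentenyl diphosphate, had an FPKM of 38.7, 9.21, 32.9 and 15.2 in the same order. It was 4.20-fold lower in HM (3.66 to 4.83) and 2.16-fold lower in LM (1.95 to 2.40).

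Idi1, the isomerase that supplies dimethylallyl diphosphate, is at chr13:8885501-8892451 on the plus strand. Its FPKM was 33.9 with DMSO and 4.57 with DFX in HM, and 44.7 and 5.91 in LM. The pattern was the same in both clones, with a level 7.41-fold lower in HM (6.46 to 8.53) and 7.57-fold lower in LM (6.85 to 8.39). On the FPKM + 1 scale it had the lowest log2 change of any member in LM. Farnesyl diphosphate synthase, Fdps, was listed at 3.95, 0.563, 4.23 and 0.489. It was 7.01-fold lower in HM (4.90 to 10.3) and 8.66-fold lower in LM (6.30 to 12.1), from 34 fragments in HM_DFX and 45 in LM_DFX. The pseudocount shrinks this change to −1.66 and −1.81 on the log2 scale of FPKM + 1, and 27.9% of the 31-base stretches of Fdps are shared with other annotated genes.

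Phosphomevalonate kinase, Pmvk, was the member of this group that was not called. Its FPKM was 26.8 with DMSO and 14.1 with DFX in HM, and 45.1 and 41.6 in LM. The HM_DFX library was the lowest of the 4, and the 2 LM libraries lay together. The level was 1.90-fold lower in HM (1.67 to 2.17) and 1.08-fold lower in LM (1.00 to 1.17).

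**Figure D1:**
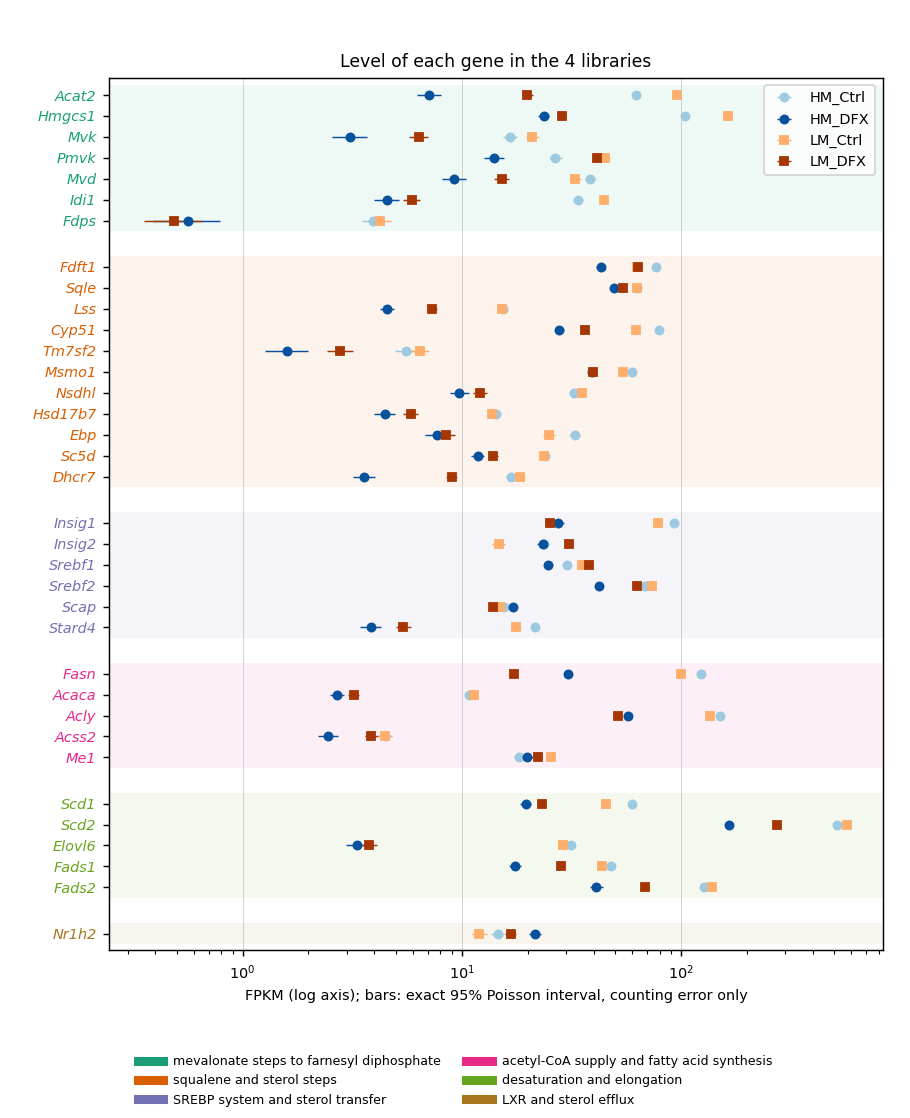
Each row is a kept gene and each symbol its FPKM in 1 library on a log axis, with circles for 4T1–HM, squares for 4T1–LM, light symbols for DMSO and dark symbols for DFX; bars are exact 95% Poisson intervals for counting error. For genes such as Idi1 (33.9 and 44.7 without drug, 4.57 and 5.91 with it) the dark symbols stand apart to the left, while for Scap (13.9 to 17.1) all 4 lie together.

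The steps from squalene to cholesterol were less uniform. Of 11 genes, 7 were called lower in HM and 3 in LM, with median log2 changes of FPKM + 1 of −1.47 and −0.96. At the entry of the branch, neither gene was called. Squalene synthase, Fdft1, had an FPKM of 76.9 with DMSO and 43.1 with DFX in HM, and 63.0 and 63.5 in LM. It was 1.79-fold lower with DFX in HM (1.69 to 1.89), while in LM the 2 libraries were level at a ratio of 1.01 (0.961 to 1.06). The exons of Fdft1 overlap those of Ctsb on the opposite strand, and the use of strand in counting is not stated. Squalene epoxidase, Sqle, a rate–controlling oxygenase, had an FPKM of 62.9, 49.7, 63.0 and 54.3 in the same order. It was 1.27-fold lower in HM (1.22 to 1.32) and 1.16-fold lower in LM (1.12 to 1.202), the smallest change among the HM values of this group.

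A group of 3 later enzymes was called lower in both clones. Nsdhl and Hsd17b7 act with Msmo1 in the removal of the methyl groups at the fourth carbon of the sterol, and Ebp moves a double bond within the ring. Nsdhl had an FPKM of 32.5 with DMSO and 9.76 with DFX in HM, and 35.3 and 12.2 in LM, or 3.33-fold lower in HM (2.98 to 3.72) and 2.90-fold lower in LM (2.66 to 3.17). Hsd17b7 had 14.3, 4.46, 13.8 and 5.86, or 3.21-fold (2.84 to 3.64) and 2.35-fold lower (2.13 to 2.60). For both genes the 2 untreated clones lay within a narrow range of each other and the 2 treated ones did too. Ebp had 32.8, 7.75, 24.99 and 8.51, or 4.24-fold (3.70 to 4.86) and 2.94-fold lower (2.62 to 3.30).

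Lss, Cyp51, Tm7sf2 and Dhcr7 were called lower in HM and not in LM. Lanosterol synthase, Lss, had an FPKM of 15.4 with DMSO and 4.56 with DFX in HM, and 15.3 and 7.35 in LM. Cyp51, the heme enzyme that demethylates lanosterol, had 79.2, 27.9, 62.2 and 36.7. The sterol reductase Tm7sf2 had 5.57, 1.599, 6.42 and 2.78. These values show a lower level with DFX in both clones, and the log2 changes of FPKM + 1 in LM were −0.96 for Lss, −0.75 for Cyp51 and −0.97 for Tm7sf2, against −1.56, −1.47 and −1.34 in HM. Dhcr7, which makes cholesterol from its last precursor, had an FPKM of 16.8, 3.58, 18.5 and 9.01. It was 4.70-fold lower in HM (4.15 to 5.33) and 2.06-fold lower in LM (1.91 to 2.22), so that HM_DFX stood well below LM_DFX although the untreated clones differed little. The fold in LM passes 2 and the log2 change of FPKM + 1, −0.97, does not pass −1, as for Lss and Tm7sf2.

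Msmo1 and Sc5d, both diiron oxidases, were called in neither clone. Msmo1 had an FPKM of 59.7, 39.5, 54.6 and 39.9, a 1.51-fold lower level in HM (1.45 to 1.58) and 1.37-fold in LM (1.32 to 1.42). Sc5d, the lathosterol desaturase, had 23.9, 11.9, 23.8 and 14.0, a 2.02-fold lower level in HM (1.86 to 2.19) and 1.71-fold in LM (1.59 to 1.83). The untreated clones were nearly level for each of them. With a log2 change of FPKM + 1 of −0.95, Sc5d was the member just short of the call in HM, and Tm7sf2 at −1.34 the one just past it.

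The SREBP system split into genes that moved with the enzymes and genes that did not. Insig1 is itself an SREBP target, and its product retains SCAP. Its FPKM was 92.7 with DMSO and 27.6 with DFX in HM, and 78.7 and 25.4 in LM, which is 3.35-fold lower in HM (3.15 to 3.57) and 3.10-fold lower in LM (2.93 to 3.28). Stard4 carries cholesterol between membranes and had 21.6, 3.85, 17.7 and 5.42. It was 5.62-fold lower in HM (4.98 to 6.35) and 3.26-fold lower in LM (2.98 to 3.58). For both genes the level was lower with DFX within each clone.

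Insig2 did not move with Insig1. Its FPKM was 23.8 with DMSO and 23.5 with DFX in HM, and 14.8 and 30.8 in LM. The 2 HM libraries were level, LM_Ctrl was the lowest and LM_DFX the highest. The gene, at chr1:121304353-121332589 on the minus strand, was 2.08-fold higher with DFX in LM (1.92 to 2.26), the 1 member called higher in that comparison, and in HM it was 1.02-fold lower (0.939 to 1.10). The log2 change of FPKM + 1 in HM, −0.02, turned to 0.11 under scaling of the libraries by median ratios. Insig2 was also 1.61-fold higher in HM_Ctrl than in LM_Ctrl (1.48 to 1.76).

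The transcripts of the transcription factors and of their escort moved less. Srebf2, whose product acts mainly on the sterol branch, had an FPKM of 68.9, 42.5, 73.6 and 62.9 in the same order of libraries, or 1.62-fold lower in HM (1.55 to 1.70) and 1.17-fold lower in LM (1.13 to 1.21). Srebf1, whose product acts mainly on lipogenesis, had 30.1, 24.9, 35.6 and 37.9, or 1.21-fold lower in HM (1.14 to 1.28) and 1.07-fold higher in LM (1.02 to 1.11). Scap had 15.7, 17.1, 14.9 and 13.9, or 1.09-fold higher in HM (1.02 to 1.16) and 1.07-fold lower in LM (1.01 to 1.14). None of these 3 was called in either clone. Transcript levels do not measure the cleavage of the SREBP proteins, and the cleaved forms were not analysed here.

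In the fatty acid branch, 3 of 5 genes were called lower in each clone, with median log2 changes of −1.38 in HM and −1.37 in LM. Acly splits citrate into cytosolic acetyl–CoA and had an FPKM of 151 with DMSO and 57.2 with DFX in HM, and 136 and 51.9 in LM. It changed alike in the 2 clones, 2.63-fold lower in HM (2.55 to 2.73) and 2.62-fold lower in LM (2.54 to 2.71). Acaca, the carboxylase that makes malonyl–CoA, had 10.8, 2.70, 11.4 and 3.22, or 3.98-fold (3.66 to 4.34) and 3.53-fold lower (3.30 to 3.78). It shares 33.4% of its 31-base stretches with other annotated genes, among them Gm5182, Ccdc82 and Cryzl2, and is uncertain to that extent.

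Fasn, the synthase that makes palmitate, is at chr11:120805846-120824547 on the minus strand. Its FPKM was 124 with DMSO and 30.7 with DFX in HM, and 100.3 and 17.4 in LM. Here LM_DFX was the lowest library, unlike for most members. The level was 4.04-fold lower in HM (3.92 to 4.17) and 5.78-fold lower in LM (5.59 to 5.98), and HM_DFX was 1.77-fold above LM_DFX (1.70 to 1.84).

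The other 2 suppliers of the branch were not called. Acss2, which makes acetyl–CoA from acetate, had an FPKM of 4.47, 2.45, 4.46 and 3.88, or 1.83-fold lower in HM (1.61 to 2.08) and 1.15-fold lower in LM (1.04 to 1.27). Malic enzyme Me1, a source of NADPH, had 18.3, 19.9, 25.4 and 22.3, with the LM libraries above the HM libraries and little change with DFX in either. Of its 3833 stretches of 31 bases, 1150 are shared with Gm7049 and Gm7329.

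**Figure D2:**
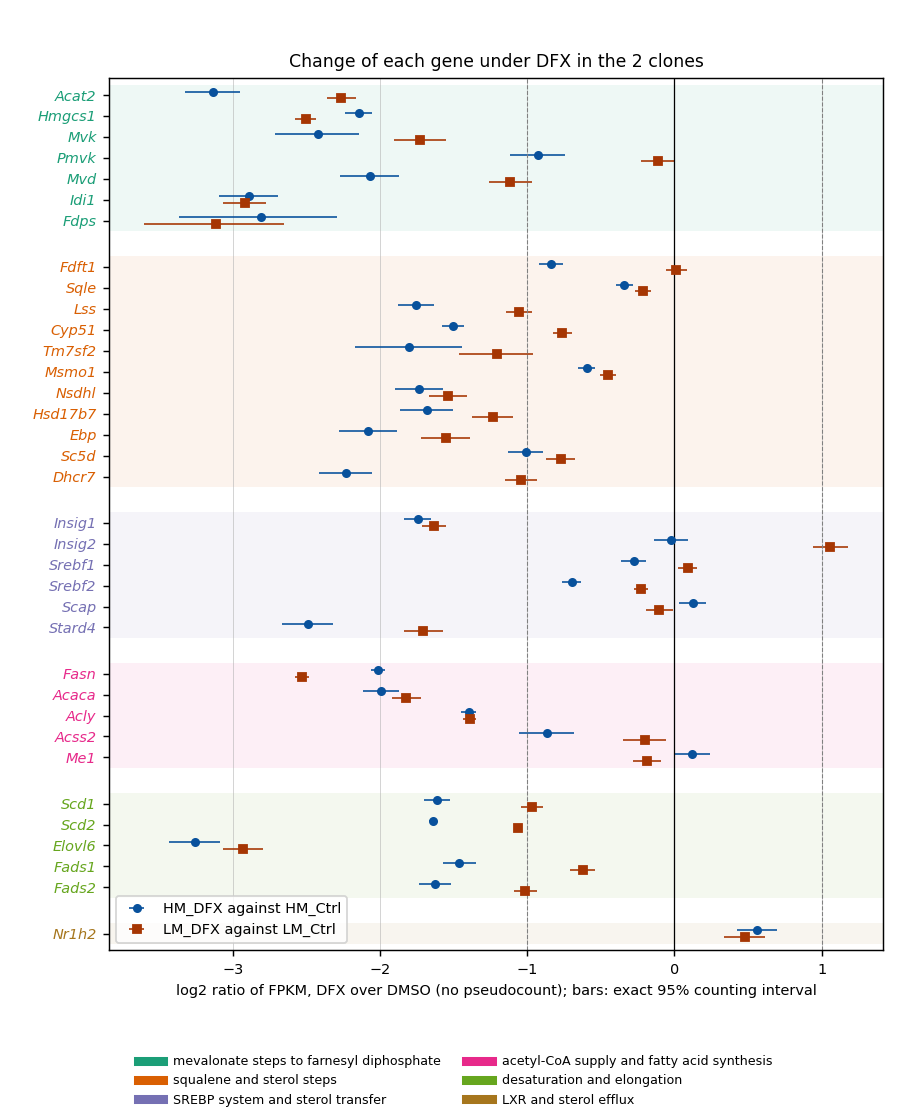
Each row is a kept gene and each symbol the log2 ratio of its FPKM with DFX over DMSO, without a pseudocount, in 4T1–HM (circles) and 4T1–LM (squares); bars are exact 95% counting intervals and dashed lines mark 2-fold. The mevalonate genes other than Pmvk lie left of the dashed line in both clones, Insig2 lies near 0 in HM and 2.08-fold higher in LM, and Nr1h2 lies right of 0 in both.

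Desaturation and elongation had the highest summed FPKM of the groups in every library, at 785 with DMSO and 247 with DFX in HM, and 829 and 398 in LM. All 5 genes were called lower in HM and 3 in LM, with median log2 changes of FPKM + 1 of −1.60 and −1.002. Under median–ratio scaling, Scd2 and Fads2 in LM were at −0.99 and −0.93, which leaves 1 gene (Elovl6) called there. Scd2, the stearoyl–CoA desaturase that puts the first double bond into fatty acids, had an FPKM of 518 with DMSO and 166 with DFX in HM, and 572 and 274 in LM. It ranked 62nd of all genes by FPKM in HM_Ctrl and 267th in HM_DFX, and 61st and 160th in LM. The level was 3.12-fold lower in HM (3.06 to 3.18) and 2.09-fold lower in LM (2.06 to 2.12). Its paralog Scd1 had 59.9, 19.6, 45.7 and 23.3, or 3.06-fold lower in HM (2.88 to 3.25) and 1.96-fold lower in LM (1.86 to 2.06). The 2 paralogs differed in level and had similar changes, and they share part of their sequence (8.14% of the 31-base stretches of Scd1 and 6.81% of those of Scd2 occur in other genes).

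Elovl6 lengthens palmitate to stearate and lies at chr3:129532355-129638495 on the plus strand. Its FPKM was 31.7 with DMSO and 3.31 with DFX in HM, and 28.9 and 3.79 in LM. The untreated libraries were alike, the treated ones were alike, and the gap between them was 9.56-fold in HM (8.51 to 10.8) and 7.63-fold in LM (6.96 to 8.39). Fads2, which starts the desaturation of polyunsaturated fatty acids, had 127, 41.1, 139 and 68.8, or 3.09-fold lower in HM (2.87 to 3.33) and 2.02-fold lower in LM (1.91 to 2.13). Its log2 change of FPKM + 1 in LM was −1.002, just past the call. Fads1, the next desaturase, had 48.2, 17.5, 43.8 and 28.5, or 2.75-fold lower in HM (2.55 to 2.97) and 1.54-fold lower in LM (1.45 to 1.63).

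Grouped by cofactor, the 7 iron–dependent enzymes had a summed FPKM of 916 with DMSO and 323 with DFX in HM, and 941 and 485 in LM. Most of each sum was Scd2, at 518, 166, 572 and 274. Of the 7 enzymes, 5 were called lower in HM and 2 in LM, with median log2 changes of FPKM + 1 of −1.47 and −0.75. Over all kept genes, 12.4% were called lower in HM and 8.72% in LM. The 21 enzymes without iron had sums of 884, 303, 954 and 384, with 16 called lower in HM and 13 in LM and medians of −1.66 and −1.37. The 2 calls among the iron–dependent enzymes in LM, Scd2 and Fads2, were lost under median–ratio scaling (−0.99 and −0.93), which leaves 0 of 7 called there. The enzymes without iron had the larger median change in each clone, a difference that was not tested.

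The receptor LXRβ, encoded by Nr1h2, went the other way. Its FPKM was 14.6 with DMSO and 21.6 with DFX in HM, and 12.1 and 16.8 in LM, which is 1.48-fold higher with DFX in HM (1.34 to 1.62) and 1.39-fold higher in LM (1.26 to 1.53), short of the call in both. Abca1 had 8 fragments in HM_Ctrl (FPKM 0.0461) and was listed at 0 in the other 3 libraries. Abcg1 was listed at 0, 0.0685, 0.250 and 0.303. Neither exporter was expressed at a level at which a change could be read.

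Between the clones without drug, 0 of the 35 kept members were called in either direction, where 3.15% of all kept genes were called lower and 3.65% higher in HM_Ctrl than in LM_Ctrl. The median log2 difference of FPKM + 1 was 0.00, and the members ranged from −0.73 (Pmvk) to 0.65 (Insig2). The mevalonate genes had the lowest median of the groups, at −0.39. Of these 7 genes, 6 had lower levels in HM_Ctrl. They were Hmgcs1 (105 in HM_Ctrl and 163 in LM_Ctrl), Acat2 (62.5 and 95.6), Pmvk (26.8 and 45.1), Idi1 (33.9 and 44.7), Mvk (16.6 and 21.03) and Fdps (3.95 and 4.23, within counting error). Mvd (38.7 and 32.9) had a higher level in HM_Ctrl.

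With DFX, the 2 clones differed more, and over all kept genes the share called lower also rose, from 3.15% to 5.05%. HM_DFX was called lower than LM_DFX for 3 members and higher for 0, where 3.31% of all kept genes were called higher. The median log2 difference was −0.33 over the members, beside −0.05 over all kept genes. The 3 genes were Acat2, 2.802-fold lower in HM_DFX (2.45 to 3.22), Pmvk, 2.96-fold lower (2.63 to 3.34), and Dhcr7, 2.52-fold lower (2.21 to 2.87). Of these, Acat2 and Pmvk were also lower in the untreated HM clone, by log2 differences of −0.61 and −0.73, and Dhcr7 was at −0.13.

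The change with DFX was more negative in HM than in LM for 28 of the 35 members and for 7163 of the 12669 kept genes. The median of the difference in response (log2 change in HM less that in LM) was −0.38 over the members, beside −0.08 over all kept genes. Acly was level at −0.01, which turned to 0.06 under median–ratio scaling. For 1 member, Insig2, the difference reached −1.03 and was called, and for 0 members was it called in the other direction, where 5.38% of all kept genes were called lower and 3.52% higher. Under scaling of the libraries by median ratios, the difference of Insig2 was −0.97 and was not called. The next largest differences were those of Dhcr7 (−0.99), Mvd (−0.89), Fdft1 (−0.83) and Fads1 (−0.80). Fasn (0.48), Hmgcs1 (0.37) and Me1 (0.29) had the largest differences of the other sign. None of these differences could be tested.

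The lists of called genes overlapped. All 17 members called lower in LM were among the 23 called lower in HM, which is 100% of the LM list and 73.9% of the HM list. Over all kept genes, those called lower in both clones were 60.996% of the LM list and 43.0% of the HM list. As a share of the genes kept, 48.6% of the members and 5.32% of all genes were called lower in both. The 6 members called lower in HM and not in LM (Lss, Cyp51, Tm7sf2, Dhcr7, Scd1 and Fads1) had log2 changes in LM between −0.97 and −0.61. Across the 35 members, the 2 changes had a Pearson r of 0.90 and a Spearman rho of 0.91, and across all kept genes a Pearson r of 0.72. Genes of 1 pathway are not independent, each change rests on a pair of libraries, and no library enters both changes.

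**Figure D3:**
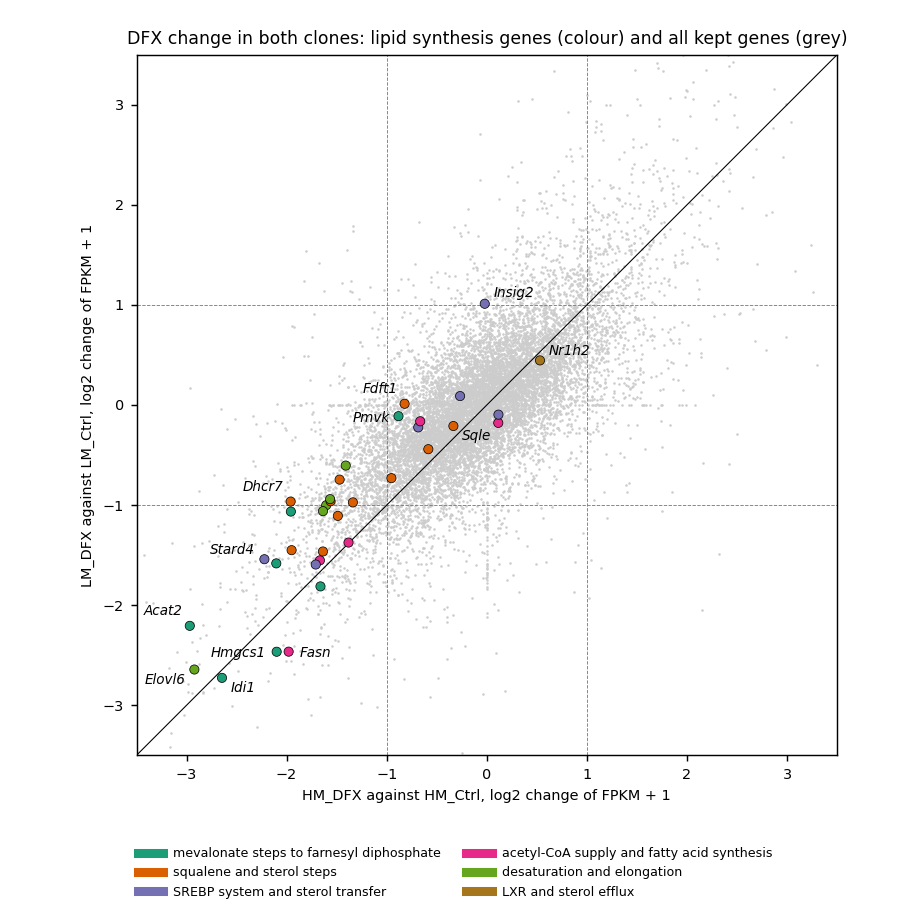
Each point is a kept gene placed by its log2 change of FPKM + 1 with DFX in 4T1–HM (horizontal) and in 4T1–LM (vertical), with the 35 members in color by role, all other kept genes in grey, dashed lines at 2-fold and 44 genes beyond the axes. Most members lie in the lower left, 28 of them above the diagonal, where the change was more negative in HM, and Insig2 and Nr1h2 lie apart from them.

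Neighboring pathways of lipid metabolism did not share the pattern as a whole. For the lists below, the shares over all kept genes were 12.4% lower and 6.93% higher in HM, and 8.72% lower and 7.09% higher in LM. The medians over all kept genes were −0.10 and −0.04. In lists this short, counts of 0 or 1 lie near these shares and are no result about the list. The isoprenoid branch, which uses farnesyl diphosphate for prenylation, dolichol and ubiquinone, had 0 of 14 kept genes called lower in either clone and median log2 changes of FPKM + 1 of 0.01 in HM and 0.11 in LM. Its 1 called gene was Rabggtb, a subunit of the Rab geranylgeranyl transferase, with an FPKM of 38.8 with DMSO and 93.5 with DFX in HM, and 33.5 and 57.6 in LM. The 10 genes for processing of SREBP and for sterol–regulated degradation had 0 called lower, 2 called higher in HM (Syvn1, an endoplasmic reticulum ubiquitin ligase, at 1.30, and Sec24d, a coat protein of export vesicles, at 1.31) and 1 in LM (Erlin1 at 1.07). Their medians were 0.07 and 0.24.

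Genes that activate, elongate or regulate fatty acid synthesis moved partly with the members. Of 17 kept genes, 7 were called lower in HM and 3 in LM, with medians of −0.94 and −0.51. Acsl5, an acyl–CoA synthetase, had an FPKM of 70.1 with DMSO and 21.1 with DFX in HM, and 111 and 26.7 in LM. Mid1ip1, which activates the acetyl–CoA carboxylase, had 45.7, 11.9, 36.1 and 9.53. The citrate carrier Slc25a1 had 40.4, 12.7, 48.2 and 28.5. Acsl5 and Mid1ip1 were called lower in both clones and Slc25a1 in HM. The third gene called in LM was Hacd3 (−1.005), named after its values were seen.

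Genes of fatty acid oxidation had 4 of 17 called lower in HM and 1 in LM (medians −0.62 and −0.02), with Acadm, the medium–chain dehydrogenase, at −1.53 and −1.14, Cpt2 at −1.16 and −0.21, and Hadh at −1.09 and −0.72. The fourth gene called in HM was Decr1 (−1.04), named after its values were seen. It was kept only through HM_Ctrl, the library where it was high, with an FPKM of 1.65 there, 0.287 in HM_DFX and 0 in both LM libraries. Genes of glycerolipid synthesis and lipid droplets had 1 of 11 called lower and 1 higher in HM and 2 higher in LM (medians −0.23 and 0.55). Among them Hilpda, a droplet protein and HIF target, was at 0.79 in HM and 2.49 in LM, Lpin2 at 1.70 and 1.37, and Agpat2 at −1.36 and −0.86. The 12 kept LXR targets and genes of sterol transport or storage had 0 called lower in either clone, 1 called higher in HM and 2 in LM (medians 0.04 and 0.04). The gene called in HM was Abcg4 (1.07), also named after its values were seen. With an FPKM of 1.15 in HM_DFX and under 1 in the other libraries, it was kept only through the library where it was high. Osbp, at 0.999 in HM, fell short of the call. The 2 in LM were Npc2, which moves cholesterol out of lysosomes, at 1.17, and the cholesteryl ester hydrolase Nceh1 at 1.05. These counts describe the lists and were not tested.

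**Figure D4:**
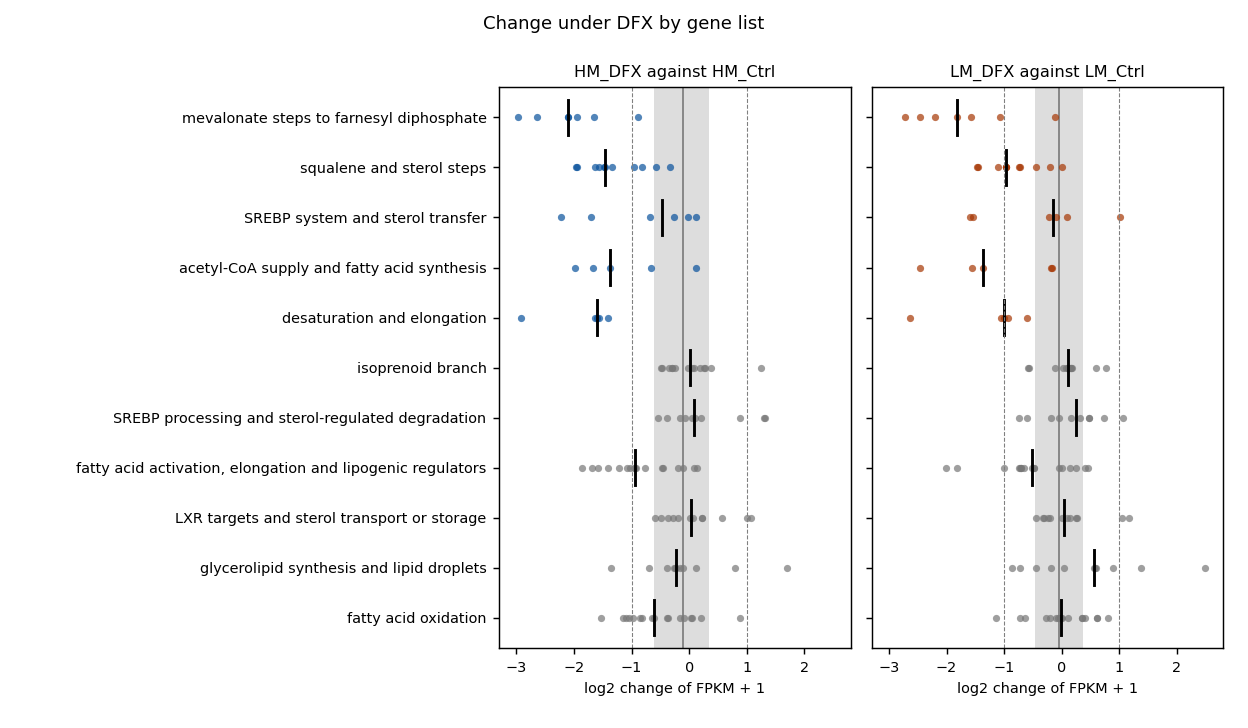
Each point is a kept gene placed by its log2 change of FPKM + 1 with DFX in 4T1–HM (left) and 4T1–LM (right), in rows by list, with a black bar at the median of the list, the grey line and band at the median and interquartile range of all kept genes, and dashed lines at 2-fold. The mevalonate genes have the lowest medians (−2.10 and −1.81), and the medians of the isoprenoid branch (0.01 and 0.11) lie within the grey band.

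The libraries held between 14363065 and 21883855 fragments. Of 8 genes that mark chelation (HIF targets and the transferrin receptor Tfrc), 1 was called higher with DFX in HM and 6 in LM. Of all kept genes, 6.93% were called higher in HM and 7.09% in LM. The log2 changes of FPKM + 1 of the 8 genes ranged from 0.31 to 1.70 in HM and from 0.79 to 3.62 in LM. Without drug, 3 of the 8 were already called higher in HM_Ctrl than in LM_Ctrl (3.65% of all kept genes). With DFX, 1 was called lower in HM_DFX than in LM_DFX (5.05%) and 0 higher (3.31%). Tfrc changed by 0.77 in HM and 0.81 in LM. Of 7 epithelial markers, 6 were kept. They were lower with DFX in the same direction as the members, with a summed FPKM of 1765 with DMSO and 564 with DFX in HM, and 2244 and 1061 in LM, and 5 called lower in HM, and 2 lower (Krt7 and Krt8) and 1 higher (Krt19) in LM. Among all kept genes, 12.4% were called lower in HM and 8.72% in LM. The 6 kept markers had median log2 changes of FPKM + 1 of −1.34 in HM and −0.79 in LM. The medians of the members were −1.56 and −0.97. The part of these markers in the results was not tested. The adipocyte markers, of which 5 of 6 were at 0 in every library, summed to between 0.0142 and 0.173 FPKM. The fibroblast markers summed to between 3.51 and 5.64, and most of this was Pdgfra, which passed the filter with 3.18, 4.51, 2.77 and 5.50. Col1a1, Col1a2 and Dcn were below the filter, and Pdgfrb and Lum were at 0 in every library. Pgr was at 0 and Esr1 below the filter. Among leukocyte markers, Cd3e was at 0, Ptprc was at 0 in both HM libraries, and Csf1r was below the filter in all 4 (at most 0.171). Cd68 was at 12.9, 37.4, 12.3 and 83.1. In HM, 1568 kept genes were called lower and 878 higher. Scaling by median ratios, which moved the median of all kept genes in HM from −0.10 to 0.00, gave 1276 lower and 1119 higher, and the members called lower in HM were again 23.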

How the data were processed

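Bulk RNA–seq of 4 cultures was analysed, 1 library for each of HM_Ctrl, HM_DFX, LM_Ctrl and LM_DFX, assigned by the labels. The authors selected poly(A) RNA, made directional libraries, read them as pairs and deposited FPKM for 49585 genes. The submitters' processing notes name FastQC, Trimmomatic, HISAT2, featureCounts and build mm10, without versions. The strand setting is not given in the sources used here, so genes that overlap on opposite strands may share fragments. Each value therefore rests on counted fragments scaled by gene length and library total, with no pooling.

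From these FPKM, log2 ratios of FPKM + 1 were computed (pseudocount 1), a gene was kept if any library reached an FPKM of 1, and 2-fold was the call. The count test of the study was not repeated, since single libraries leave the spread unknown. For 45125 genes the coordinates match GENCODE release M21. With its exon lengths, 96.9% of the 18235 such genes above 0 were whole fragments in all 4 libraries, within 0.02. For 8 members the length was solved from the FPKM as the smallest length that fitted, and for Abcg1 none was recovered. Exact 95% intervals (Clopper–Pearson for ratios, Poisson for levels) use these fragments and cover counting error only.

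Every member is named. From each other list, at most 3 genes were named, those with the largest log2 change among genes that reached an FPKM of 5. Hacd3, Decr1 and Abcg4 were named outside this rule, to identify genes counted as called. Marker genes were chosen as whole lists and are named in part. The members and lists were chosen with earlier results of these data known. Sequence shared with other genes was measured in stretches of 31 bases, and over 20% was treated as uncertain. Promoters are from RefSeq. Protein sequences were not analysed here. The calling was run on simulated data with planted changes larger than the call. The simulation held counting error only, so it cannot tell how the calls fare under the spread from culture to culture. The settings varied were the pseudocount (0.1), the filter (none, or a minimum of 1 for the mean FPKM), the scaling (median ratio, 75th percentile), the threshold (1.5-fold, 4-fold), the background (protein–coding genes) and the list (without Scd1 and Scd2). The list without members that share over 20% of their sequence was added after seeing the data. Python 3.11.15, numpy 2.4.6, pandas 2.3.3, scipy 1.17.1 and matplotlib 3.10.9 were used.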

Additional observations from a re-analysis of the deposited data

Results flagged for a closer look

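For 5 members the log2 ratio of FPKM with DFX over DMSO, here without a pseudocount, had opposite signs in the 2 clones. With 1 library per condition the difference was not tested for any of them, and no group has enough samples to look for an outlying one. For Insig2 the ratio was −0.02 in HM and 1.06 in LM, a difference (HM less LM) of −1.08. Its change in HM lay above 0 under median–ratio scaling, at 0.11 on the FPKM + 1 scale. For Fdft1 it was −0.84 in HM and 0.01 in LM, a difference of −0.85. Srebf1 had −0.28 and 0.09, a difference of −0.37. Scap had 0.12 and −0.10, a difference of 0.23. Me1 had 0.12 and −0.19, a difference of 0.31.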

How the results depend on the processing

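The labels give no replicate numbers to pair, and with 1 library per condition no replicate could be left out. A fit with the clone as a block would take the 2 clones as replicates of the drug effect and was not run. Over 10 settings, 150 counts and medians of the members were compared with the values reported. Of these, 137 stayed within a set tolerance and 13 moved. A change of direction could be recorded only for a median farther from 0 than its counting error, not for a count, and 0 were recorded. The median of HM_Ctrl against LM_Ctrl, close to 0 in the report, was −0.02 under median–ratio scaling. A threshold of 1.5-fold called 3 members lower and 1 higher in HM_Ctrl than in LM_Ctrl, 10 lower and 1 higher in HM_DFX than in LM_DFX, and 12 with a more negative response in HM, where 8.70% and 10.5%, 14.6% and 9.95%, and 16.4% of all kept genes were called. A threshold of 4-fold called 6 lower with DFX in HM, 5 lower and 0 higher in LM, 0 lower in HM_DFX than in LM_DFX and 0 by the difference in response, where 1.31%, 1.06% and 1.42%, 0.466% and 0.466% of all kept genes were called. Both thresholds change the counts by their construction. With a pseudocount of 0.1, 2 members (Insig2 and Dhcr7) had a more negative response in HM by the call, with 10.5% of all kept genes. Median–ratio scaling gave 0 such members and a median of −1.43 in HM, and the cause was not tested. It also took Mvd, Scd2 and Fads2 in LM below the call, with log2 changes of −0.996, −0.99 and −0.93, which left 14 members lower in LM. Without the members that share over 20% of their sequence, 20 of 31 were called lower in HM and 14 in LM. Depth limits Fdps, Tm7sf2 and Mvk most, with 34, 80 and 119 fragments in HM_DFX, and the exporters Abca1 and Abcg1 altogether.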
